A study of Mus musculus with 6 samples.

Results

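The miR-34 and miR-449 family is a group of small regulatory RNAs made from 3 places in the mouse genome. Its 7 members here were taken by name from the table of microRNAs (miRNAs). They were mmu-miR-34a-5p, both arms of miR-34b and miR-34c, mmu-miR-449a-5p and mmu-miR-449c-5p. All 7 were among the 1393 annotated miRNAs of the table, which also held 1231 predicted loci. Small RNA was measured in 6 libraries from the right substantia nigra (SN, given as SNpc in the labels). In 3 libraries the mice overexpressed human α-synuclein with the A53T change, a mutation of familial Parkinson's disease, and this group is called hα-syn(A53T). The other 3 libraries, called hα-syn(A53T) + Ang-(1-7), came from mice with the same overexpression that were also given angiotensin-(1-7), a peptide of the renin-angiotensin system that acts through the receptor Mas. The question addressed was which miRNAs differed after the peptide.

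The animals were male C57BL/6J mice, and the methods give 8 weeks as their age when the virus was injected. The methods describe an adeno-associated virus carrying hα-syn(A53T) that was injected into the right SN, whereas the labels speak of overexpressing mice. For 4 weeks an osmotic pump released into the tissue above the SN either Ang-(1-7), 1.1 nmol each hour in a volume of 0.25 μL, or artificial cerebrospinal fluid alone. Both groups carried hα-syn(A53T), so the comparison is of the peptide within the model and not of the model with healthy mice. It is not stated if each library is a single mouse or several pooled mice, and p-values therefore measure the spread between these libraries, which may be technical. In bulk tissue, fewer cells of a type and less RNA per cell cannot be told apart.

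A miRNA guides the Argonaute protein to messenger RNAs that pair with its seed, bases 2 to 8 from the 5′ end, and lowers their output. The 5p arms of this family share a seed and so many predicted targets. miR-34a is made from a locus of its own, is switched on directly by the stress-responsive transcription factor p53 in human and mouse cells, and represses Bcl2, which opposes apoptosis, the deacetylase gene Sirt1 and cell cycle genes. miR-34b and miR-34c come from one transcript, which p53 can also induce. Together with miR-449 they are abundant in cells with many cilia, such as those of the airway, the ependyma and the choroid plexus. Mice that lack the family form few motile cilia. In human cells miR-34b and miR-34c have been described to lower α-synuclein.

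The sequences below show what sets the arms apart, with the seed in capitals. They are the mature mouse sequences of RefSeq (GRCm38.p6), which matched 6 of the 7 members, and mmu-miR-34c-5p is named only.
mmu-miR-34a-5p: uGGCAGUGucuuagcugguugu
mmu-miR-34b-5p: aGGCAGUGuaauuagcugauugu
mmu-miR-449a-5p: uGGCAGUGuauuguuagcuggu
mmu-miR-449c-5p: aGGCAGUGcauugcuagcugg
mmu-miR-34b-3p: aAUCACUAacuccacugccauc
mmu-miR-34c-3p: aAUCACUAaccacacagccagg

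The seed GGCAGUG was held by 4 of the 1679 mature miRNAs in the RefSeq table, which are the 4 arms ending in 5p above. This count leaves out mmu-miR-34c-5p, for which no entry was matched, so it does not show that the seed is confined to those 4. The seed AUCACUA of the 3p arms was held by 2 miRNAs. Beyond the seed the printed 5p arms differ at some bases. Counts without gaps can understate likeness between arms of unlike length, such as mmu-miR-34b-5p with 23 bases and mmu-miR-34a-5p with 22. Read from the first base without gaps, mmu-miR-34a-5p matched mmu-miR-449a-5p at 15 of 22 bases and mmu-miR-34b-5p at 11 of 22, and mmu-miR-449a-5p matched mmu-miR-449c-5p at 18 of 21. The differences after the seed can let reads of the printed arms be told apart. However, the sources used here do not give the handling of reads with more than 1 match. mmu-miR-34c-5p, without a sequence here, was not compared, so its separation from mmu-miR-34b-5p was not checked.

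The 3 loci lie on different chromosomes of GRCm38.p6. The miR-34a hairpin is at chr4:150068454-150068555 on the plus strand and overlaps an exon of Gm37795, an unclassified transcript of GENCODE vM21. The mature mmu-miR-34a-5p spans chr4:150068473-150068494. The hairpins of miR-34c (chr9:51103034-51103110) and miR-34b (chr9:51103562-51103645) lie 451 bases apart on the minus strand, within an intron of Btg4, which is read from the opposite strand. The hairpins of miR-449c (chr13:113035983-113036091) and miR-449a (chr13:113037534-113037624) lie 1442 bases apart on the plus strand, within an intron of Cdc20b and on its strand. Cdc20b is a gene of cells that are forming many cilia. The deposited tables were made with the build mm9 and hold no coordinates.

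Each library held 14796519 to 17088611 reads on annotated miRNAs, and values are given below as normalized counts, that is, reads divided by a size factor for the library. Markers of cell types other than those of the midbrain differed between the groups. The summed level of 8 epithelial miRNAs was 166507 to 482039 normalized counts after Ang-(1-7) and 5569 to 16145 without it, and 5 of the 8 rose. All 5 belong to the miR-200 group (miR-200a-3p, miR-200b-3p, miR-200c-3p, miR-141-3p and miR-429-3p), which made up most of the sum after Ang-(1-7). The other 3, miR-203-3p, miR-205-5p and miR-375-3p, had log2 fold changes of 0.32, 0.63 and 0.34 that did not pass the test. The summed level of 4 skeletal muscle miRNAs was 14945 to 21833 against 42091 to 86348, and all 4 fell. Of 3 red blood cell miRNAs 1 fell, miR-486a-5p, which made up most of their sums of 1542 to 1801 against 3609 to 6893, while miR-451a and miR-144-3p had log2 fold changes of 0.83 and -0.40 that did not pass the test. Of 6 miRNAs abundant in neurons, 3 rose (miR-137-3p, miR-138-5p and miR-218-5p), 1 fell (miR-124-3p) and 2 did not pass the test. These last 2, miR-9-5p and miR-128-3p, made up most of the sums of 3379720 to 4649590 against 2959680 to 3330270. Neuronal miRNAs were thus present at a high level in every library. The 4 miRNAs of hindbrain and spinal cord, tissue that lies outside the SN, summed to 1373 to 31727 against 12670 to 74596. The 1 that fell was miR-196a-5p, at 0 in all 3 hα-syn(A53T) + Ang-(1-7) libraries and at only 4, 10 and 7 reads in hα-syn(A53T). miR-196b-5p, at 0 in 1 library after Ang-(1-7), did not pass the test. Most of each sum was miR-10a-5p and miR-10b-5p, which did not pass either (adjusted p = 0.085 and 0.132, limma). The part of any of these in the results below was not tested, apart from the fit with miR-10 given at the end.

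Of the 7 family members, mmu-miR-34a-5p was the only miRNA to pass the test, and it was lower after Ang-(1-7). It was measured at 3042, 5206 and 3124 normalized counts in the 3 libraries of the treated group, against 7933, 8027 and 6198 in those of hα-syn(A53T). The groups did not overlap, and the highest treated library, replicate 2, remained below the lowest hα-syn(A53T) library, replicate 3. The means were 3791 ± 1227 and 7386 ± 1030 (SD, n = 3 each), a level 1.95-fold higher in hα-syn(A53T). The log2 fold change was -0.999 (SE 0.25, 95% interval -1.57 to -0.43), with adjusted p = 0.0386 from limma's test with Benjamini-Hochberg adjustment over 1065 miRNAs. An adjusted p under 0.05 is the threshold for "rose" and "fell" throughout. The call was lost when any 1 of 4 of the 6 libraries was left out (adjusted p = 0.0799 to 0.174, limma) and with a miR-10 covariate (adjusted p = 0.113, limma), as given in full at the end. Across all miRNAs tested 4.04% fell by this threshold and 5.54% rose. The values rest on 3045 to 8663 reads per library, so counting error is small beside the spread between libraries.

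**Figure D1:**
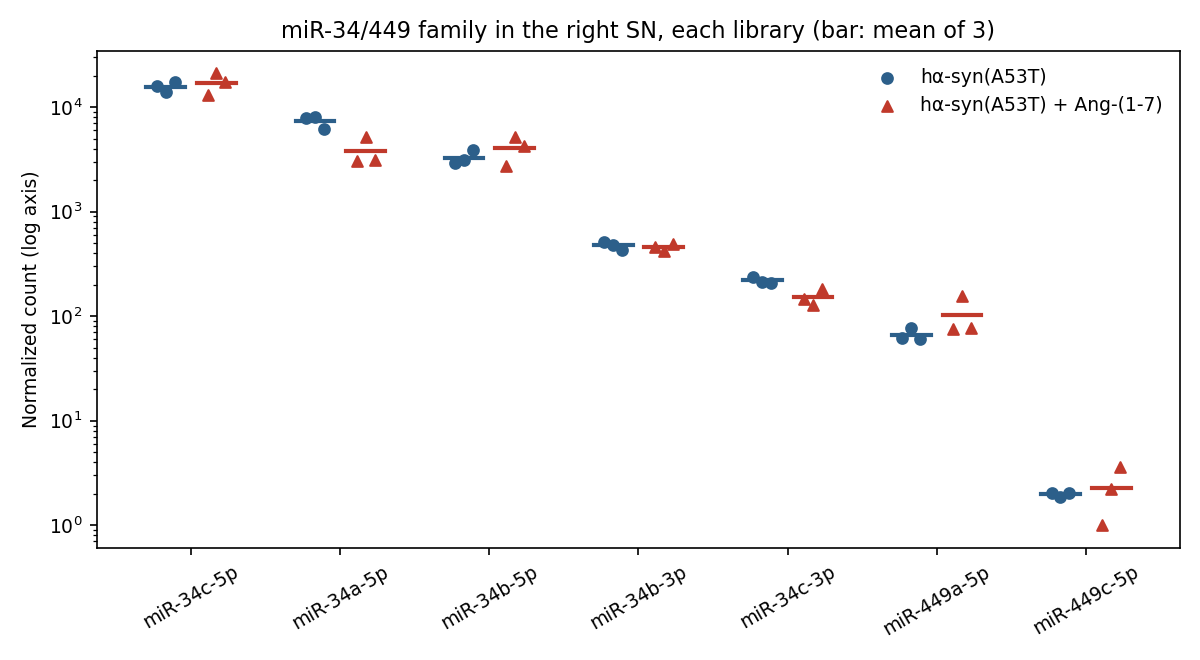
Normalized counts of the 7 family members on a log axis, with a point for each of the 3 hα-syn(A53T) + Ang-(1-7) and 3 hα-syn(A53T) libraries and a bar for the mean of each group. The groups separate for mmu-miR-34a-5p (3042 to 5206 against 6198 to 8027) and for mmu-miR-34c-3p (128 to 182 against 209 to 239), and overlap for the other 5.

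The 5p arm of miR-34c was the most abundant member, and no difference was detected. mmu-miR-34c-5p ranked 89 by mean level among the annotated miRNAs, and was measured at 13037, 21064 and 17385 normalized counts after Ang-(1-7) and at 15788, 14026 and 17471 in hα-syn(A53T). The treated libraries held both the lowest and the highest value. The means were 17162 ± 4018 and 15762 ± 1723 (SD, n = 3 each), and the log2 fold change was 0.10 (SE 0.22, 95% interval -0.40 to 0.60, adjusted p = 0.83, limma). This interval leaves room for a change in either direction of smaller size than that of mmu-miR-34a-5p.

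mmu-miR-34b-5p, made from the same transcript, behaved likewise. Its levels were 2759, 5215 and 4226 normalized counts after Ang-(1-7) and 2924, 3101 and 3867 in hα-syn(A53T), with means of 4067 ± 1236 and 3297 ± 501 (SD, n = 3 each). The groups overlapped, since replicate 1 of the treated group was the lowest of all 6 libraries. The log2 fold change was 0.26 (SE 0.26, 95% interval -0.32 to 0.85, adjusted p = 0.601, limma).

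The 3p arms, which carry the other seed, were much less abundant. mmu-miR-34b-3p was measured at 458, 418 and 490 normalized counts after Ang-(1-7) and at 514, 480.0 and 434 in hα-syn(A53T), with a log2 fold change of -0.06 (SE 0.22, 95% interval -0.55 to 0.42, adjusted p = 0.899, limma). Its groups overlapped. mmu-miR-34c-3p was measured at 147, 128 and 182 normalized counts after Ang-(1-7) and at 239, 213 and 209 in hα-syn(A53T). Here every treated library lay below every hα-syn(A53T) library, as it did for 14% of all miRNAs tested. The log2 fold change of -0.54 (SE 0.25, 95% interval -1.10 to 0.02) missed the threshold, with adjusted p = 0.228 from limma.

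The miR-449 arms stood lowest in the family. mmu-miR-449a-5p was measured at 75.9, 158 and 77.1 normalized counts after Ang-(1-7) and at 61.5, 76.9 and 60.7 in hα-syn(A53T). Only replicate 2 of the treated group stood clearly above the rest. The means were 104 ± 46.8 and 66.4 ± 9.13 (SD, n = 3 each), with a log2 fold change of 0.55 (SE 0.34, 95% interval -0.21 to 1.32, adjusted p = 0.378, limma). mmu-miR-449c-5p was near the limit of detection, with 1, 2 and 4 reads after Ang-(1-7) and 2 in each hα-syn(A53T) library. The 7 reads against 6 gave a ratio of 1.18 with a 95% counting interval of 0.339 to 4.25, so a difference was not detectable at this depth (log2 fold change 0.06, SE 0.54, adjusted p = 0.967, limma). Such intervals cover counting error only.

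Of the 7 members, all of which passed the filter on low values, 1 fell, 0 rose and 6 did not pass the test. The median log2 fold change of the members was 0.06, with 4 above 0 and 3 below, beside -0.04 over all 1065 miRNAs tested. The hα-syn(A53T) libraries were higher throughout for 2 members, and the groups overlapped for 5. Of all 1065 miRNAs tested, 14% were higher throughout in hα-syn(A53T), 4.04% fell and 5.54% rose. Of 4 other arms and relatives of the family that were looked for, the table listed 2, both close to the limit of detection. miR-34a-3p, the arm paired with mmu-miR-34a-5p in the hairpin, had 1, 6 and 4 reads after Ang-(1-7) and 8, 8 and 7 in hα-syn(A53T), with a log2 fold change of -1.05 (SE 0.55, adjusted p = 0.283, limma). miR-449b, the remaining relative in the miR-449 locus, had 1, 1 and 2 reads against 0, 0 and 2 (adjusted p = 0.607, limma).

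**Figure D2:**
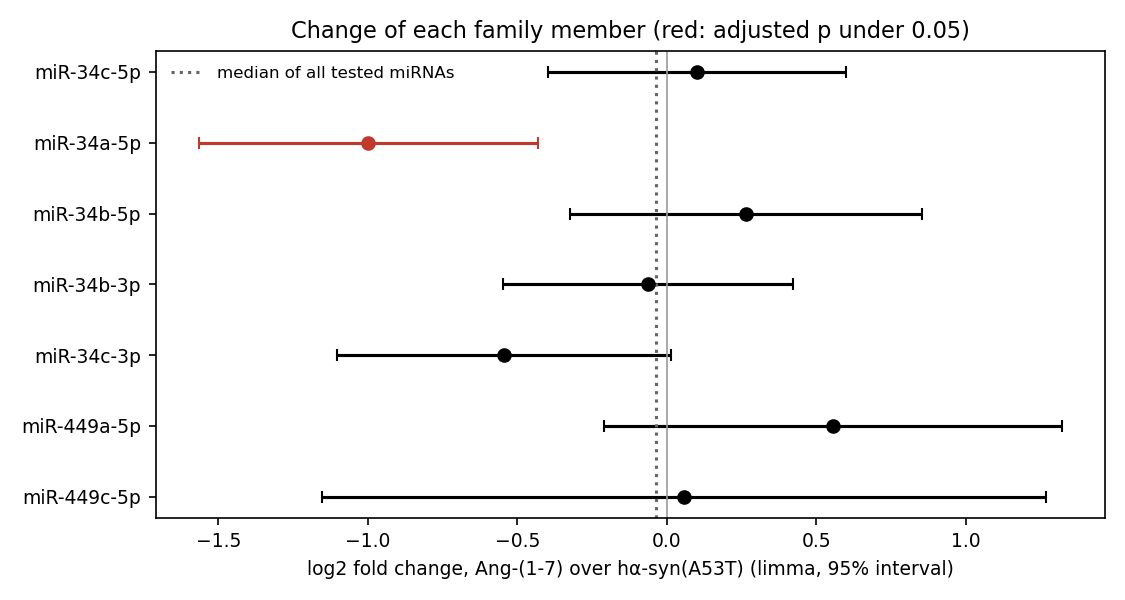
The log2 fold change of each family member, hα-syn(A53T) + Ang-(1-7) over hα-syn(A53T), from limma with its 95% interval. The interval of mmu-miR-34a-5p, from -1.57 to -0.43, is the only one of the 7 that leaves out 0.

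The design implies a comparison between miR-34a and the loci of ciliated cells within each library, where depth and size factor cancel. The level of mmu-miR-34a-5p relative to mmu-miR-449a-5p was 40.1, 33.0 and 40.5 after Ang-(1-7) and 129, 104 and 102 in hα-syn(A53T). These ranges were far apart, and the ratio was 2.94-fold lower after the peptide. Relative to mmu-miR-34c-5p, the ratio was 0.233, 0.247 and 0.180 after Ang-(1-7) and 0.502, 0.572 and 0.355 in hα-syn(A53T). The lowest hα-syn(A53T) value here was that of replicate 3, which had the lowest mmu-miR-34a-5p level of its group. Relative to mmu-miR-34b-5p, it was 1.10, 0.998 and 0.739 against 2.71, 2.59 and 1.60. On the log2 scale these 3 differences were -1.55, -1.10 and -1.26. Ratios to mmu-miR-34b-3p and mmu-miR-449c-5p also did not overlap, with differences of -0.94 and -1.06, the latter resting on 1 to 4 reads of mmu-miR-449c-5p. The ratio to mmu-miR-34c-3p overlapped between the groups, at 20.7, 40.7 and 17.1 against 33.2, 37.7 and 29.6.

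Each of these 6 ratios was tested with a two-sided exact permutation test over the 6 libraries, for which the smallest p that 3 against 3 allows is 0.1. For 5 ratios p was 0.1 (adjusted over the 6 ratios, 0.12), and for the ratio to mmu-miR-34c-3p the exact test gave p = 0.4. The permutation tests could therefore not reach 0.05 in this design. The ratios share the values of mmu-miR-34a-5p, so they are not 6 separate observations.

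**Figure D3:**
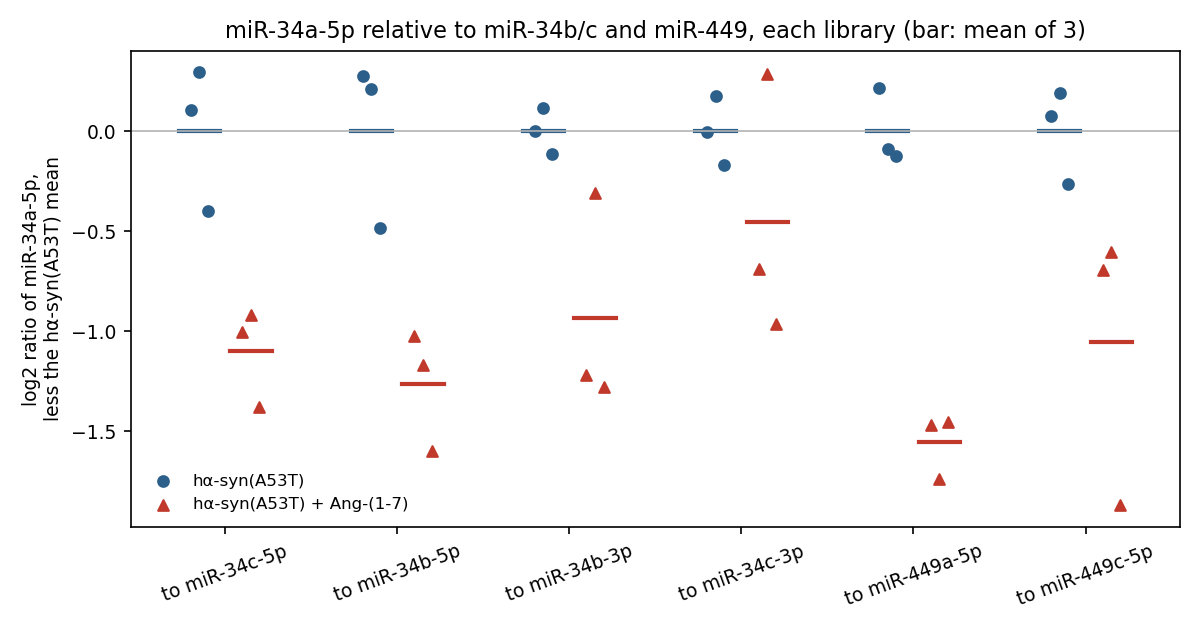
The log2 ratio of mmu-miR-34a-5p to each of the other 6 members within each library, set to 0 at the hα-syn(A53T) mean, with points for libraries and bars for the mean of 3. The treated libraries lie below every hα-syn(A53T) library for 5 ratios and overlap them for the ratio to mmu-miR-34c-3p.

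The order of levels within the family differed between the groups at its second place. In every library mmu-miR-34c-5p was the most abundant member and mmu-miR-449c-5p the least. In the 3 hα-syn(A53T) libraries mmu-miR-34a-5p was above mmu-miR-34b-5p without overlap, at 6198 to 8027 against 2924 to 3867 normalized counts. After Ang-(1-7) the ranges of these 2 members overlapped, and mmu-miR-34b-5p was the higher in 2 of 3 libraries. mmu-miR-34b-3p came next in both groups. mmu-miR-34c-3p and mmu-miR-449a-5p followed, apart in hα-syn(A53T) but with overlapping ranges after Ang-(1-7), at 128 to 182 and 75.9 to 158. Because miRNAs differ in how well they are captured during library preparation, levels of different miRNAs compare only roughly.

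The summed levels of the 5 arms ending in 5p overlapped between the groups. It was 18914, 31645 and 24815 normalized counts after Ang-(1-7) and 26708, 25233 and 27599 in hα-syn(A53T), with means of 25125 ± 6371 and 26513 ± 1195 (SD, n = 3 each). The makeup of that sum was different. mmu-miR-34a-5p held 16.1%, 16.5% and 12.6% of it after Ang-(1-7) and 29.7%, 31.8% and 22.5% in hα-syn(A53T). mmu-miR-34c-5p held 68.9%, 66.6% and 70.1% against 59.1%, 55.6% and 63.3%. Since shares of a sum are tied, a lower share of mmu-miR-34a-5p raises the share of the others.

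The 2 arms of a hairpin can also be set against each other. The ratio of mmu-miR-34c-5p to mmu-miR-34c-3p was 88.8, 165 and 95.3 after Ang-(1-7) and 66.1, 65.8 and 83.4 in hα-syn(A53T), a set of values without overlap that was not tested. The ratio of mmu-miR-34b-5p to mmu-miR-34b-3p was 6.02, 12.5 and 8.63 against 5.69, 6.46 and 8.91, with overlap. In each of these pairs, and in all 6 libraries, the 5p arm was the more abundant.

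Other miRNAs tied to p53 were examined next, from a list of 8 whose link rests on work in human cells. Of these 8, 2 fell, 0 rose and 6 did not pass the test, and their median log2 fold change was -0.08. The 2 that fell were miR-192-5p and miR-194-5p. miR-192-5p was measured at 9021, 8379 and 8907 normalized counts after Ang-(1-7) and at 19237, 20862 and 15849 in hα-syn(A53T), with a log2 fold change of -1.08 (SE 0.19, adjusted p = 0.00868, limma). miR-194-5p was measured at 3270, 4019 and 3549 against 11749, 10970 and 7417, with a log2 fold change of -1.45 (SE 0.23, adjusted p = 0.00431, limma). Neither miRNA had groups that overlapped. Without hα-syn(A53T) replicate 1 or replicate 2 the call of miR-192-5p was lost (adjusted p = 0.0642 and 0.0833, limma), whereas miR-194-5p kept its call without any 1 library. Of the other 6, miR-16-5p and miR-145a-5p had log2 fold changes of -0.78 (adjusted p = 0.11) and 0.62 (adjusted p = 0.248) by limma. The remaining 4 (miR-107-3p, miR-143-3p, miR-15a-5p and miR-215-5p) had values between -0.08 and 0.02.

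The choroid plexus, whose epithelium carries cilia, is a tissue rich in miR-34b, miR-34c and miR-449, and its own miRNAs are given beside them. miR-204-5p, abundant in choroid plexus and in the pigment epithelium of the eye, was measured at 21813, 11603 and 14275 normalized counts after Ang-(1-7) and at 46557, 47777 and 24992 in hα-syn(A53T). It fell, with a log2 fold change of -1.31 (SE 0.31, adjusted p = 0.0326, limma). Its relative miR-211-5p fell by 1.36 on the log2 scale (SE 0.33, adjusted p = 0.0358, limma), from levels of 1907, 2127 and 1013 to levels of 824, 447 and 652. Both calls were lost on leaving out Ang-(1-7) replicate 2, or either replicate 1 or replicate 2 of hα-syn(A53T), at adjusted p of 0.106 to 0.165 by limma.

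Of 9 miRNAs hosted by Htr2c, the gene of a serotonin receptor that the choroid plexus expresses strongly, 1 fell, 0 rose and 8 did not pass the test, with a median log2 fold change of -0.21. The member that fell was miR-448-3p, at 553, 585 and 538 normalized counts after Ang-(1-7) against 943, 944 and 1475. Its log2 fold change was -0.97 (SE 0.24, adjusted p = 0.0386, limma), and the call was lost when any 1 of the 6 libraries was left out. Over the 6 miRNAs taken as choroid plexus markers, 3 fell, and the summed level of the 6 was 39336 to 49008 after Ang-(1-7) against 53647 to 82690. Most of each sum was miR-204-5p and miR-1298-5p, and the latter did not pass the test (log2 fold change -0.21, adjusted p = 0.565, limma). Beside these sums, the log2 fold changes of the miR-34b and miR-34c arms were 0.26 for mmu-miR-34b-5p, -0.06 for mmu-miR-34b-3p, 0.10 for mmu-miR-34c-5p and -0.54 for mmu-miR-34c-3p, and that of mmu-miR-449a-5p was 0.55, none of them past the threshold. The part of choroid plexus tissue in these values was not tested.

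Across the 6 libraries mmu-miR-34b-5p and mmu-miR-34c-5p varied together (Pearson r = 0.936 on log2 values), whereas the correlation of mmu-miR-34a-5p with mmu-miR-34c-5p was 0.0553. If reads were shared between mmu-miR-34b-5p and mmu-miR-34c-5p was not tested. The paired arms of a hairpin did not vary together, with r = -0.61 for miR-34b and r = -0.31 for miR-34c. mmu-miR-34a-5p correlated with mmu-miR-34c-3p at 0.62. Among 691 miRNAs outside the family with a mean of at least 10 normalized counts, those most like mmu-miR-34a-5p were miR-214-3p (r = 0.999), miR-30b-5p (r = 0.991), miR-26b-5p (r = 0.991) and miR-199b-3p (r = 0.978). miR-214-3p, the closest, was measured at 25.0, 45.2 and 26.3 normalized counts after Ang-(1-7) and at 69.7, 75.1 and 55.6 in hα-syn(A53T), and missed the threshold with a log2 fold change of -1.07 (adjusted p = 0.0785, limma). Those most like mmu-miR-34c-5p were miR-19a-3p (r = 0.944), miR-381-5p (r = 0.940), miR-210-3p (r = 0.902) and miR-124-5p (r = 0.898). These coefficients are descriptions over 6 libraries that include both groups and share their size factors.

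The lower level of mmu-miR-34a-5p kept its direction in all 17 other ways of fitting the data, with log2 fold changes between -1.28 and -0.86, and its call in 12 of them. The call was lost without Ang-(1-7) replicate 1 (-0.86, adjusted p = 0.137), without Ang-(1-7) replicate 3 (-0.88, adjusted p = 0.0799), without hα-syn(A53T) replicate 1 (-0.94, adjusted p = 0.13) and without hα-syn(A53T) replicate 2 (-0.93, adjusted p = 0.174), all by limma. It was also lost when miR-10a-5p and its relative miR-10b-5p, which mark hindbrain and spinal cord, entered the fit as a covariate through their averaged log2 level (-1.28, SE 0.32, adjusted p = 0.113, limma). In the libraries themselves, miR-10b-5p was at 1118, 577 and 21338 normalized counts after Ang-(1-7) and at 6887, 48662 and 39970 in hα-syn(A53T). The groups overlapped, and replicate 3 of the treated group stood apart from its other libraries. None of the other 6 members passed the threshold in any of these fits.

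**Figure D4:**
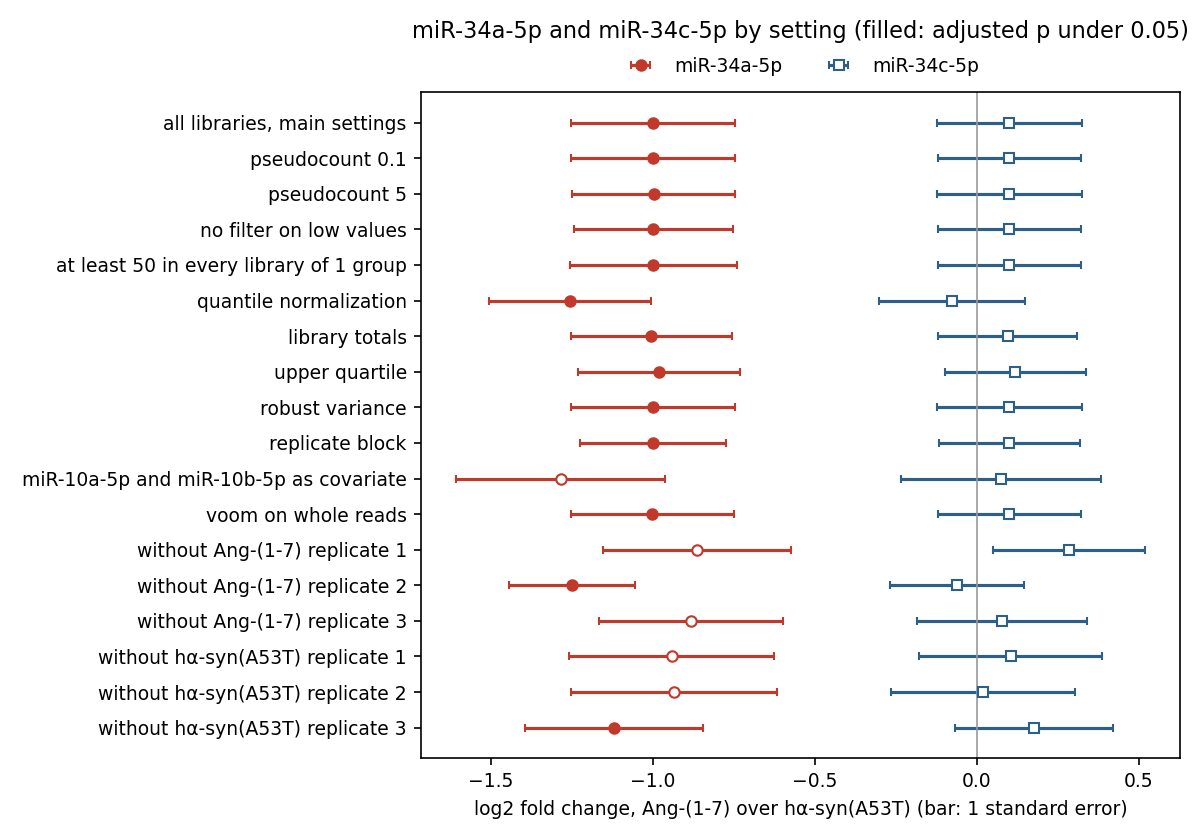
The log2 fold change of mmu-miR-34a-5p and mmu-miR-34c-5p, hα-syn(A53T) + Ang-(1-7) over hα-syn(A53T), under the reported settings and 17 others, with bars of 1 standard error and filled symbols where adjusted p was under 0.05. mmu-miR-34a-5p lies between -1.28 and -0.86 in the 17 others, and mmu-miR-34c-5p lies near 0 and below it in 2 of them.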

How the data were processed

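Small RNA of the right SN was measured in 6 libraries, 3 per group by the labels. The study's methods and the submitters' notes name paired-end sequencing on a NovaSeq, Bowtie 1.2.3, DESeq2 1.10.1 and the build mm9. For adapter trimming, miRBase release and counting, the details were not given in the sources used here. Each deposited signal value is a read count that the authors divided by a size factor, of which annotated miRNAs and predicted loci have separate sets. Within a library, every annotated value is an integer times the value of 1 read (tolerance 1e-06), which gave the reads and depths printed. The authors' own fold changes, p-values and summary of called miRNAs were not used.

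Values were tested on the scale log2(value + 1), on which changes of rare miRNAs are understated, with limma 3.58.1 and a trend (R 4.3.3, and data.table of version 1.17.8). miRNAs entered if 3 or more libraries had a value of 1 or higher, and adjustment ran over the 1065 annotated miRNAs that passed. Ratios were also computed in R. Figures and sequence comparisons used Python 3.11.15, pandas 2.3.3 and matplotlib 3.10.9, and the fit was tested on simulated data. Alternatives were other pseudocounts, filters, scalings and variance estimates, a replicate block, a miR-10 covariate, leaving out each library, and voom on whole reads, which was added after the data had been seen.

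The members and lists were chosen with earlier results of these data known. Named are all members, the family's other arms, list members past the threshold, and the 4 miRNAs most correlated with mmu-miR-34a-5p and with mmu-miR-34c-5p. Also named are miR-10a-5p and miR-10b-5p, and the other p53-linked miRNAs, which were named after their values were seen. Predicted loci were not used.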

Additional observations from a re-analysis of the deposited data

How the results depend on the processing

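mmu-miR-34a-5p stayed lower under all 17 alternatives, with adjusted p of 0.011 to 0.174 by limma. With the miR-10 covariate, 13 miRNAs rose and 9 fell, 0 of them members, and mmu-miR-34a-5p was at -1.28. The calls of miR-192-5p, miR-204-5p, miR-211-5p and miR-448-3p were lost there too (adjusted p = 0.0932 to 0.278, limma), with log2 fold changes of -1.06, -1.44, -1.32 and -0.94. Leaving out each library gave 19 to 62 miRNAs that rose, 8 to 49 that fell, 0 to 1 members that fell, and log2 fold changes of -1.25 to -0.86 for mmu-miR-34a-5p. Among these fits, fewest miRNAs were called without hα-syn(A53T) replicate 2 (19 higher and 8 lower, against 59 and 43). Differences of the ratios kept their sign in all 8 alternatives run for each, and without 1 library lay at -1.62 to -1.45 for mmu-miR-449a-5p and at -0.83 to -0.20 for mmu-miR-34c-3p. The direction turned for mmu-miR-34c-5p with quantile normalization (-0.075) and without Ang-(1-7) replicate 2, with a range of -0.060 to 0.29 over the fits that left out 1 library. It turned for mmu-miR-449c-5p without Ang-(1-7) replicate 3, with a range of -0.23 to 0.37. The cause was not tested, and neither miRNA passed the threshold in any fit. mmu-miR-449c-5p did not pass the filter of at least 50 and has no value there. The planned count fits were not run, because the columns as a whole hold 2 sets of size factors.

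It was not established if the replicate numbers pair the libraries. Deviations from the group means correlated at 0.12, -0.09 and 0.18 between libraries of the same number, and at -0.22 to 0.14 between the others. Correlations this weak cannot decide the question. With a replicate block 57 miRNAs rose and 55 fell, 1 of them a member, and mmu-miR-34a-5p had adjusted p = 0.0274 by limma.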
